A study of Mus musculus with 8 samples.

Results

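The genes described here are 40 components of the Wnt pathway, listed by role: 8 Wnt ligands, 8 Frizzled receptors, 5 co-receptors, 4 secreted inhibitors, 4 members of the β-catenin destruction complex, 4 signal transducers, 4 TCF/LEF factors, 2 ubiquitin ligases that remove receptors and 1 enzyme that acylates the ligands. A gene was credited with an m6A peak where the summit of a deposited peak lay in an annotated exon of that gene. The 4 peak lists held 42744 summits, of which 231 lay in these genes. All 40 symbols matched the annotation, and 22 of the 40 genes had a summit in at least 1 list. The peaks come from m6A-RIP-seq, in which an antibody enriches RNA fragments that carry N6-methyladenosine (m6A), of primary vascular smooth muscle cells (VSMCs) grown out of the descending aorta of C57BL/6J mice aged 8 to 12 weeks. The cultures were transduced with lentivirus that expressed either a nontargeting control hairpin (shCTR) or one that targets Mettl14 (shMettl14), whose product is part of the m6A methyltransferase complex. Both groups therefore carried a virus, and the knockdown group used 1 hairpin only. Each group had replicates A and B of the m6A-enriched RNA (IP), and each replicate had its own input. No source states whether the replicates came from separate cultures, so the p-values measure only the spread between these samples.

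Wnt ligands are secreted lipid-modified proteins that bind Frizzled receptors together with LRP5 or LRP6, and this stops the destruction complex of AXIN, APC and GSK3B from marking β-catenin for degradation. Stabilised β-catenin then enters the nucleus and acts with TCF/LEF factors on target genes. Other ligands, such as WNT5A, signal through the ROR receptors without β-catenin. In the artery wall the pathway is known for its part in VSMC proliferation and migration after injury.

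The lists of shCTR A and B held 11158 and 8655 summits and those of shMettl14 A and B 13675 and 9256. The study's methods state a sequencing depth per sample, and read numbers for each library are not given in the lists. The number of IP fragments over each summit (the pileup) and the background at it could be solved from the peak caller's values. The median pileup was 13 to 16 fragments over all summits of a list and 15 to 19 over the summits in Wnt genes, so counting error limits every single peak. Lists were set against each other by whether a peak was present and by its rank. Each rank is given as the percentile of a peak's fold enrichment (IP over background) among all peaks of its own list. A loss of m6A that was equal at all sites would leave these ranks in place. A peak list is not a measure of expression, and in a gene without a peak the absence of m6A, low expression and shallow coverage cannot be told apart. Of 10 smooth muscle markers, Cald1 and Lmod1 had summits in all 4 lists and Myh11 in some, whereas Acta2, Tagln, Cnn1, Myl9, Smtn, Tpm2 and Des had none. Of 6 endothelial markers, Pecam1 and Cdh5 had summits in all 4 lists and Kdr in all but shMettl14 B, and Tek, Vwf and Tie1 had none. Of 5 fibroblast markers, Pdgfra and Col1a1 had summits in all 4 lists, and Dcn, Lum and Pi16 had none. Of 5 macrophage and leukocyte markers, Csf1r had a summit in shMettl14 B only, and Ptprc, Cd68, Adgre1 and Lyz2 had none. The part of these other cell types in the Wnt gene peaks was not tested.

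Peaks were counted by role, and no difference between roles was tested. Of the 8 Frizzled receptors, 7 had a summit in at least 1 list and 6 (Fzd1, Fzd4, Fzd5, Fzd6, Fzd7 and Fzd8) in all 4. Among the co-receptors this was 4 of 5, with Lrp5, Lrp6, Ror1 and Ror2 in all 4 lists and the kinase-like receptor Ryk in none. Every one of the 4 listed members of the destruction complex had a peak: the scaffolds Apc and Axin1 and the kinase Gsk3b in all 4 lists, and Axin2, a scaffold that is also a known target gene of the pathway, in the A list of each group only. The secreted inhibitors Sfrp1, which binds ligands, and Dkk2, which binds LRP5/6, had peaks in all 4 lists, and Sfrp2 and Dkk3 in none. Znrf3, a ubiquitin ligase that clears Frizzled receptors from the surface, had peaks in all 4 lists, and the related Rnf43 had none.

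Ctnnb1, which encodes β-catenin, was the only one of 4 transducers with a peak, since Dvl1, Dvl2 and Dvl3, the cytoplasmic adaptors of Frizzled, had none in any list. No summit lay in Tcf7, Tcf7l1, Tcf7l2 or Lef1. Of 8 ligands, Wnt5b had a summit in all 4 lists, Wnt5a in all but shMettl14 B, and Wnt9a in shCTR B only, whereas Wnt2, Wnt2b, Wnt4, Wnt10b and Wnt11 had none. Fzd2 was seen in the A list of each group, and Fzd3 and Porcn, the acyltransferase of the ligands, in none. In all, 22 of 40 genes (55%) had a summit in any list and 18 (45%) in all 4, beside 25.3% and 16.0% of 21951 protein-coding genes. The listed genes were not matched to the others for expression or length, so these shares are descriptive.

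The number of summits per gene varied as much as their presence. Fzd8 had 8 and 5 summits in shCTR A and B and 11 and 5 in shMettl14 A and B. The counts in the same order were 6, 3, 10 and 6 for Apc, 4, 4, 5 and 5 for Fzd7, the same for Lrp6, and 5, 5, 4 and 3 for Fzd1. These 5 genes held 107 of the 231 summits, or 46.3%, and the Frizzled genes together held 106. Wnt gene summits in all numbered 60 and 45 in the shCTR lists and 77 and 49 in the shMettl14 lists, a mean of 52.5 ± 10.6 and 63 ± 19.8 (SD, n = 2 each). The ratio of the means was 1.20, and the groups overlapped (exact permutation test, two-sided, p = 0.667, where the smallest p that 2 against 2 lists allow is 0.333). As a percent of all summits of the list, the Wnt genes took 0.538 and 0.520% in shCTR and 0.563 and 0.529% in shMettl14, shares that varied less than the counts.

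**Figure D1:**
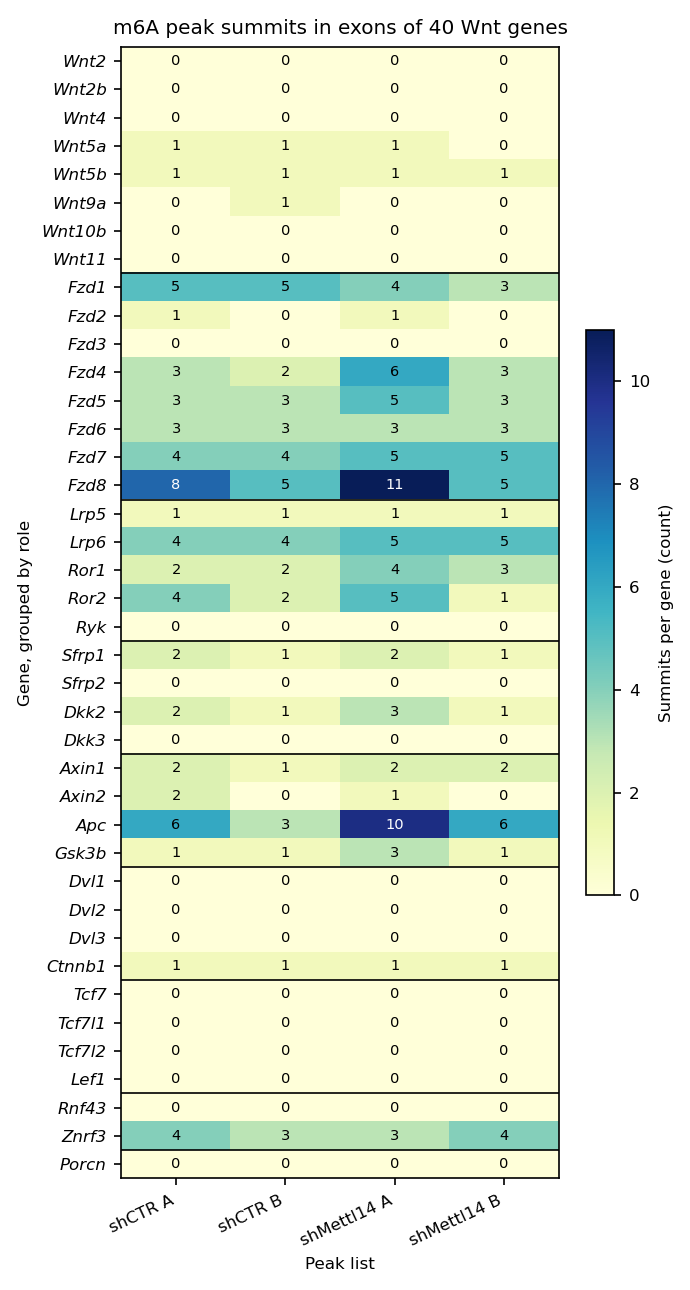
Number of peak summits in annotated exons for each of the 40 genes (rows, grouped by role) in each peak list (columns), printed in the cell and shown by colour. Fzd8 and Apc reach 11 and 10 summits in shMettl14 A, and the rows of the Dvl and TCF/LEF genes are 0 throughout.

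Of the 231 summits, 225 lay in the transcript chosen for the gene, the complete one with the longest coding sequence: 14 in 5′ UTRs, 156 in coding sequence and 55 in 3′ UTRs. Within 200 nt of the stop codon, on either side, lay 27.1 and 29.5% of the Wnt summits in the shCTR lists and 29.7 and 31.3% in the shMettl14 lists, beside 25.4 to 27.1% over all summits of a list. That window covers 7.15 to 7.68% of the length of the same Wnt transcripts. With 44 to 74 summits per list, the 95% Wilson intervals of the shares ran from 17.4% to 45.3%, for counting error only. The group means were 28.3 ± 1.72% and 30.5 ± 1.07% (SD, n = 2), and the higher share in shMettl14 had the smallest p the design allows (exact permutation test, p = 0.333).

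All 7 Frizzled genes with peaks had at least 1 summit within 200 nt of the stop codon, and Fzd1, Fzd4, Fzd5, Fzd7 and Fzd8 had one there in all 4 lists. So did Lrp6 and Ctnnb1, whose summits in β-catenin lay between 9 nt before and 26 nt after the stop codon. Fzd5 is an example of how several summits spread over one long exon: its 14 summits ran from 1012 to 30 nt before the stop codon. In Fzd7 a summit was also found in the 5′ UTR in all 4 lists, 2251 to 2200 nt before the stop codon. Fzd8 likewise had summits from 2674 nt before to 168 nt after the stop codon. Other genes had no summit in this window in any list, among them Lrp5, Axin1 and Sfrp1: the 4 summits of Lrp5, the 7 of Axin1 and the 6 of Sfrp1 lay at least 3549, 1889 and 290 nt from it. Wnt5a and Wnt5b differed in this respect, since the Wnt5a summits lay in the coding sequence 118 to 63 nt before the stop codon and those of Wnt5b in the 3′ UTR 223 to 322 nt after it.

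**Figure D2:**
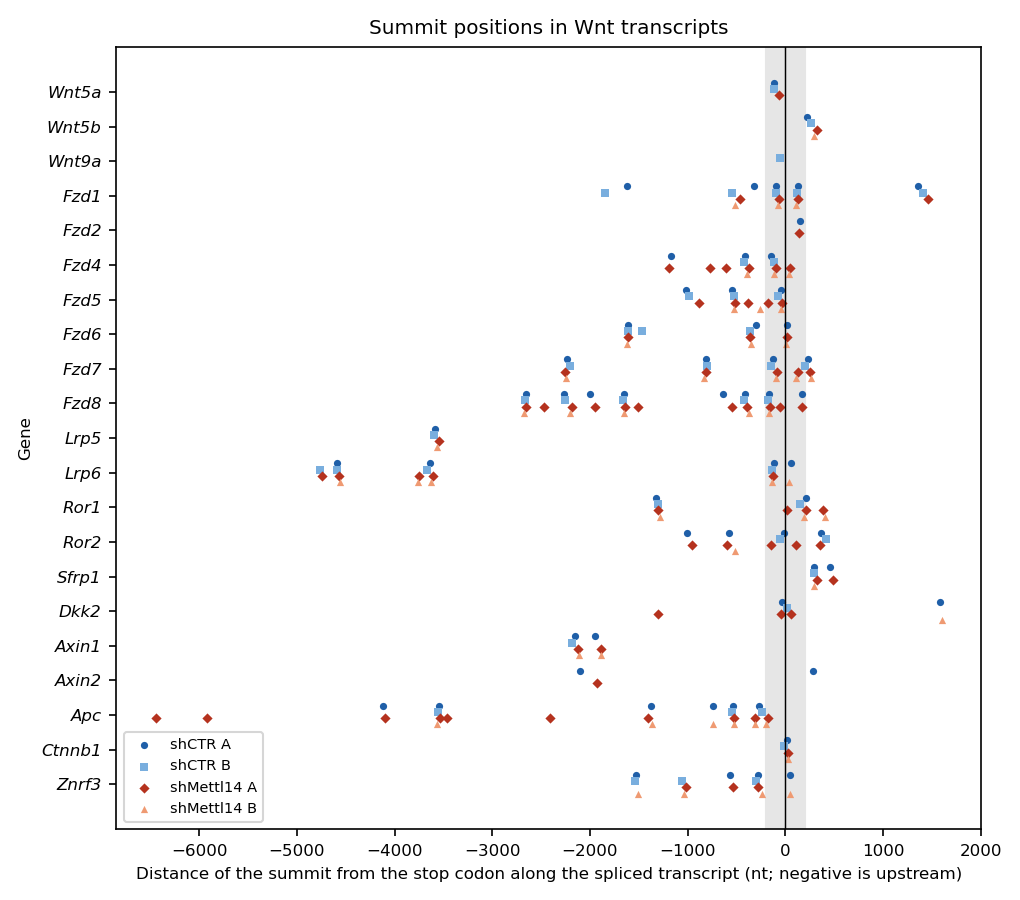
Position of each of the 225 summits in the chosen transcripts of 21 genes, as distance from the stop codon along the spliced transcript (nt, negative upstream), with symbols and colours for the 4 peak lists and the window of 200 nt on either side shaded. Summits of Fzd1, Fzd4, Fzd5, Fzd7, Fzd8, Lrp6 and Ctnnb1 lie in the window in all 4 lists, and those of Lrp5 and Axin1 lie far upstream.

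The exon structure of these genes gave a second feature that the selection did not use. Exons of at least 400 nt held 90.9 to 94.9% of the Wnt summits per list, beside 97.4 to 98.3% over all summits. By position, 178 lay in the last exon, 66 of them in the 4 Frizzled genes made of 1 exon (Fzd1, Fzd2, Fzd7 and Fzd8), 46 in internal exons and 1 in a first exon of several. The share in the last exon was 75 to 81.4% per list, beside 63.7 to 64.8% over all summits, and that in genes of 1 exon 27.1 to 31.8%, beside 4.49 to 4.68%. The 46 internal summits lay in 6 genes, Lrp5, Lrp6, Fzd6, Axin1, Axin2 and Znrf3, in no exon shorter than 394 nt. In Axin1, Axin2 and Znrf3 each internal summit lay in the longest internal exon, exon 2 of 959 nt, exon 2 of 951 nt and exon 8 of 1698 nt. With exons tied for the longest counted alike, as exons 2 and 6 of Lrp5 are, this held for 36 of the 46 internal summits (78.3%), and over all genes for 84.6%. Long exons also occurred in genes without a peak. Fzd3 had an internal exon of 1018 nt and a last exon of 10484 nt, Dvl2 an internal exon of 1634 nt and Rnf43 one of 1359 nt. The expression of these genes was not measured here, and why they had no peak was not tested.

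The pairs Lrp5 and Lrp6, and Axin1 and Axin2, had peaks in the exon of the same number, and they are described as examples chosen after their values were seen. Lrp5 (chromosome 19) and Lrp6 (chromosome 6), the closely related co-receptors, each have 23 exons in the chosen transcript, and exon 6 is 397 nt long in both, with 72.5% of aligned bases identical. In Lrp5 all 4 summits lay in this exon, at position 247 and 238 from its 5′ end in shCTR A and B and at 282 and 268 in shMettl14 A and B. In Lrp6 the summits of the same exon lay at 231 and 198 in the shCTR lists, at 109 and 256 in the shMettl14 A list and, in that of shMettl14 B, at 103 and 241. Each list thus had a summit of both genes between positions 198 and 282. Exon 2 of these genes, of 397 and 394 nt and 65.0% identity, had summits of Lrp6 in all 4 lists and of Lrp5 in none. Axin1 and Axin2 both had peaks in exon 2, of 959 and 951 nt and 65.2% identity. Axin1 had summits between positions 488 and 782, and Axin2 had one at 557 in shCTR A and one at 731 in shMettl14 A. The Axin2 summits rested on 3 and 6 fragments, at percentiles 1.93 and 38.5, and the B lists had none. Ror1 and Ror2, the receptors of WNT5A, both had all their summits in the last of 9 exons. Other related genes did not match in this way. Exon 4 is 1018 nt long in both Fzd6 and Fzd3, and it held 5 summits in Fzd6 and none in Fzd3. Znrf3 had 12 summits in its exon 8 of 1698 nt, and Rnf43 had none in its longest internal exon, exon 9 of 1359 nt.

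The site of the strongest Lrp5 summit is shown beside its aligned position in Lrp6, because the same motif stands at the same exon position in both. The sequences are 25 nt of the spliced transcript, written 5′ to 3′ from GRCm38, and the capitals mark the DRACH motif (where D means any base but C, R a purine and H any base but G) nearest to the strongest Lrp5 summit, 3 nt away. The adenosine of the motif is base 271 of exon 6 in both genes. The windows lie at chr19:3630188-3630212 and chr6:134507400-134507424, both on the minus strand.
Lrp5 exon 6: gggtcgcccgGAACCtctactggac
Lrp6 exon 6: gggttgcaagGAACCtgtactggac
Of the 25 bases 21 were identical. Counted from 1 at the 5′ end with the Lrp5 base first, the differences were C5T, C8A, C9A and C17G, none of them in the motif. The shared motif lay 24, 33, 11 and 3 nt from the Lrp5 summits of shCTR A, shCTR B, shMettl14 A and shMettl14 B. It was not the motif nearest to any Lrp6 summit. The Lrp6 summits between positions 198 and 256 lay 40, 73, 15 and 30 nt from it in the same order, and all 4 were nearer to another DRACH, TGACT at base 256, at 25, 58, 0 and 15 nt. For Lrp5 it was the nearest DRACH in shMettl14 B only.

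**Figure D3:**
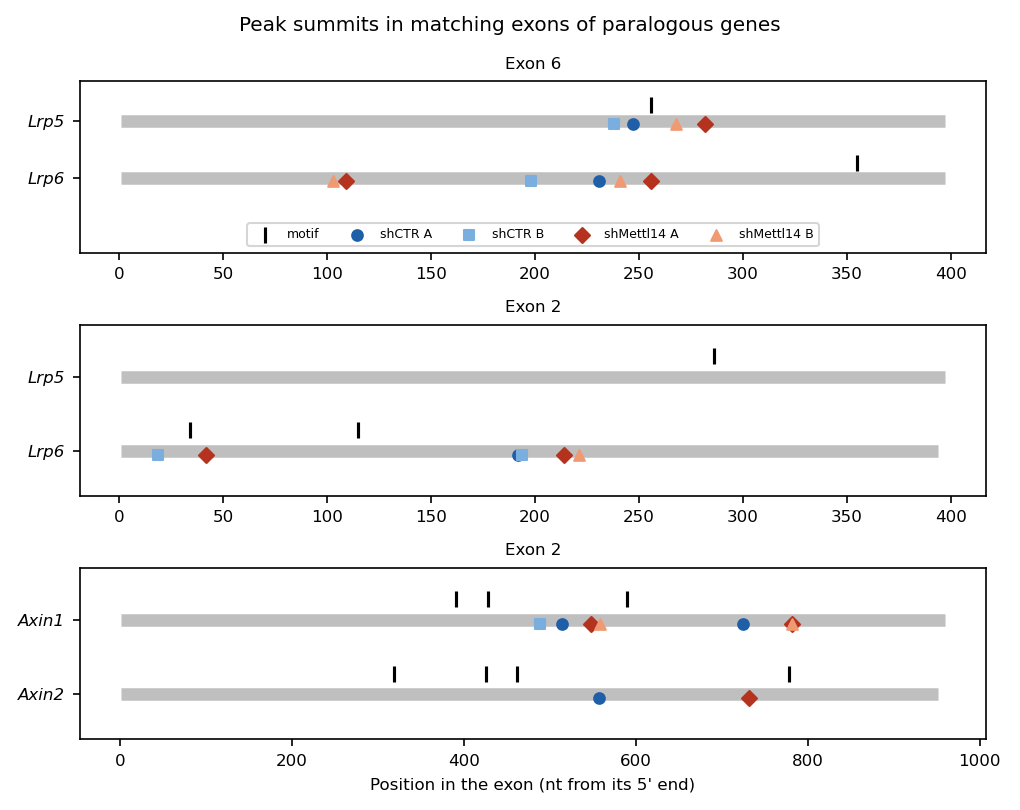
Summits (symbols by peak list) along exon 6 and exon 2 of Lrp5 and Lrp6 and exon 2 of Axin1 and Axin2, with position in nt from the 5′ end of the exon. Black ticks mark GGACT, grey bars are the exons. Exon 6 has summits of both Lrp genes between positions 198 and 282 in every list, and exon 2 has summits of Lrp6 only.

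DRACH, the consensus for m6A, lay within 50 nt of 93.2% and 93.2% of the Wnt summits in the shCTR lists and of 87.8% and 95.8% in the shMettl14 lists. The difference between the groups was smaller than the spread between replicates (exact permutation test, p = 1). Over all summits of a list the share was 94.9 to 96.2%, and 83.6% of all 112130 positions of the chosen Wnt transcripts had the motif as near. The narrower motif GGACT lay within 50 nt of 20.3 and 22.7% of the Wnt summits in shCTR and of 27 and 25% in shMettl14, or 10 to 20 summits per list, beside 19.7 to 23.6% over all summits and 11.7% of all positions of the Wnt transcripts. Within 50 nt both shMettl14 lists were above both shCTR lists, and at the other distances searched both were below. Within 25 nt the share was 15.3 and 13.6% in shCTR and 13.5 and 12.5% in shMettl14, and within 100 nt it was 39.0 and 40.9% against 37.8 and 29.2%. The GGACT share thus gave no direction that held across the 3 distances. Only the transcript strand was searched, and each GGACT is also a DRACH.

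The sequences around the strongest summit of further genes are shown to place these peaks in the transcripts, each with its nearest DRACH in capitals. They come from the gene's strand of GRCm38 and read 5′ to 3′. The windows are chr5:4755708-4755732 (minus strand) in the coding sequence of Fzd1, chr1:59484789-59484813 (plus) in the 3′ UTR of Fzd7, chr11:5281815-5281839 (minus) in the coding sequence of Znrf3, chr6:119433146-119433170 (minus) in the 3′ UTR of Wnt5b, chr15:39030937-39030961 (plus) in exon 4 of Fzd6 and chr9:120959498-120959522 (plus) across the end of the coding sequence of Ctnnb1.
Fzd1: tggtccggcaAGACActgaattcct
Fzd7: cactgagcttTAACCtggaagtgag
Znrf3: gctcttccagTGACTccgtggtgga
Wnt5b: tttctggccaGGACTtttgggacat
Fzd6: ggacttccggGGACCaaggctatag
Ctnnb1: ggtttgatacTGACCtgtaaatcgt
In Fzd1, Fzd7 and Znrf3 the motif lay 1 nt from the summit, and in Fzd6, Wnt5b and Ctnnb1 12, 19 and 29 nt from it. The adenosine of the Ctnnb1 motif is 5 nt before the stop codon. The strongest summits of Fzd5 (that of shMettl14 A) and Fzd4 (that of shCTR A) had no DRACH within 50 nt. Their nearest motifs, GAACT and GAACC, lay 52 and 54 nt away. All 4 lists had a summit within 50 nt of each of these strongest summits, and some of those lay nearer to the motif. The adenosine of the Fzd5 motif is at 64735408, and the summits of shCTR A, shCTR B and shMettl14 B were at 64735392, 64735373 and 64735373. In Fzd4 the adenosine is at 89407888 and the shCTR B summit was at 89407935. These summits of other lists thus had the motif within 50 nt.

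The intervals of the 4 lists merged into 11361 regions, and 47 of them held a Wnt gene summit. A peak in all 4 lists was found in 25 of the 47 (53.2%), beside 43.4% of all regions, in 3 lists in 8, in 2 lists in 7 and in 1 list in 7. The 25 lay in 16 genes. Both shMettl14 percentiles were above both shCTR percentiles in 4 of the 25 (16%), beside 17.3% of the 4929 regions with a peak in all 4 lists, and below them in 3 (12%), beside 14.3%. The 4 were regions of Fzd5, Lrp5, Apc and Fzd6 (exon 4), and the 3 were regions of Fzd4, Fzd8 and Fzd6 (exon 6). The values below are those of the strongest region of a gene, with percentiles in the order shCTR A, shCTR B, shMettl14 A and shMettl14 B. Each list's value is that of its own highest-fold summit in the region, so lists can differ in the site measured.

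By mean percentile over the 4 lists the regions of Fzd5 (96.2), Apc (96.2) and Fzd4 (93.6) ranked highest, and the Frizzled regions ran down to exon 6 of Fzd6 (23.3). The Fzd5 region (chr1:64734703-64735977, coding sequence in the second and last exon) stood at the percentiles 92.6, 95.8, 98.3 and 98.3, with pileups of 47, 45, 42 and 39 fragments. The shCTR A value comes from its summit at 64734884. Its summit at 64735392, nearer to those used in the other lists, had 36 fragments at percentile 92.1. Both shMettl14 values were above both shCTR values, by 4.09 percentile points on average (2.52 without shCTR A and 1.76 with pileups ranked), and the region did not pass the rank test described below. The Fzd4 region (chr7:89407468-89408625, coding sequence and 3′ UTR) stood at 96.9, 95, 87.9 and 94.7, with 54, 42, 32 and 36 fragments. The shMettl14 A value comes from a 3′ UTR summit at 89408407. Its summit at 89407983, nearer to those used in the other lists, had 42 fragments at percentile 87.4. Both shMettl14 percentiles were below both shCTR percentiles. With pileups ranked in place of fold enrichment this difference turned from -4.64 to 0.90 percentile points. Leaving out shMettl14 A gave -1.27, and leaving out shMettl14 B gave -8.01. FZD4 is best known as the receptor of norrin in retinal vessels. In Fzd7 the region around the stop codon (chr1:59484411-59485089) stood at 94.0, 71.7, 96.5 and 87.8 and had pileups of 66, 45, 60 and 40 fragments, the highest of the 25 regions in every list but shCTR B. The 3 regions of Fzd8 that were found in all 4 lists stood between 69.5 and 93.0, the strongest of them, in the coding sequence, at 84.4, 75, 93.0 and 82.6. The region over its 5′ UTR and coding sequence stood at 79.4, 82.5, 72.3 and 76.8, lower in both shMettl14 lists. The Fzd1 region (chr5:4755319-4756319) stood at 59.7, 73.2, 89.4 and 70.1. In this Fzd7 region, the strongest of Fzd8 and the Fzd1 region the groups overlapped. Fzd6, the Frizzled receptor of planar cell polarity, had weaker peaks, and its exon 4 region (chr15:39030808-39031324) stood at 44.3, 48.5, 72.6 and 51.5, higher in both shMettl14 lists by 15.6 points on average, which turned to -0.87 with pileups ranked. It came to 5.06 on shMettl14 B alone and to 26.2 on shMettl14 A alone.

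Among the co-receptors, Ror1 had the strongest region, in the 3′ UTR (chr4:100442077-100442722), at 95.4, 67.3, 98.8 and 70.4. Here the 2 A lists were high and the 2 B lists low, whatever the hairpin, and the pileups were 32, 13, 31 and 15 fragments. The Lrp5 exon 6 region (chr19:3630097-3630372) stood at 72.9, 66.5, 78.7 and 82.1, with both shMettl14 values above both shCTR values, by 10.7 points on average. With pileups ranked the difference was 4.49 points, and the groups overlapped (82.1, 91.7, 89.7 and 93.1). The Lrp6 exon 6 region (chr6:134507388-134507701) stood at 48.3, 54.6, 56.1 and 48.4, the narrowest range of the 3 Lrp6 regions. Its exon 2 region (chr6:134541697-134542150) ranged from 26.4 in shCTR B to 86.5 in shMettl14 A.

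Of the ligands and secreted inhibitors, the 3′ UTR region of Wnt5b (chr6:119433005-119433322) stood at 84.2, 73.6, 74.6 and 50.8 on pileups of only 13, 13, 12 and 8 fragments. Wnt5a, for which the peak was absent from shMettl14 B, stood at 87.6, 73.4 and 86.6 in the other lists (chr14:28522693-28522982), with 16, 14 and 17 fragments. The Sfrp1 region in the 3′ UTR (chr8:23446651-23447025) stood at 52.5, 39.2, 54.3 and 46.2 with 43, 28, 36 and 22 fragments, so it combined high pileups with a middling rank. Its background, 4.45, 3.09, 3.76 and 1.96 fragments, was the second highest of the 25 regions in shCTR A. The Znrf3 region (chr11:5280869-5281963, exon 8) showed the reverse, at 71.4, 79.6, 78.8 and 59.3 on 11, 14, 13 and 10 fragments.

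The destruction complex spanned the whole range. Apc, the large scaffold mutated in colorectal cancer, had 7 regions, all in its last exon of 10548 nt. The strongest, 741 to 174 nt before the stop codon, stood at 96.4, 94.1, 98.9 and 95.3, as high as Fzd5, with 49, 48, 51 and 31 fragments. A region 3561 to 3459 nt before the stop codon was also found in all 4 lists, at 38.5, 41.6, 62.2 and 59.1, where both shMettl14 values were above both shCTR values. Of the other 5, 3 were found in shMettl14 A only, the longest list. The Axin1 region (chr17:26142943-26143456) stood at 85.3, 44.8, 72.8 and 81.9. The Gsk3b region (chr16:38089565-38089921) stood at 5.57, 37.5, 27.8 and 52.6, and it lay in the 5′ UTR of an annotated Gsk3b transcript other than the chosen one. In every list a summit there was 819 to 846 nt before the start codon of that transcript.

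Ctnnb1 had the weakest region of the 16 genes by rank (chr9:120959411-120959609, last exon), at 12.4, 13.2, 24.7 and 3.21. Its pileups of 42, 30, 37 and 22 fragments were nevertheless above the median of its lists. The background at this summit, 7.44, 4.87, 5.71 and 4.55 fragments, was the highest of the 25 regions in every list. At the other extreme, Axin2 was called on 3 to 6 fragments over the smallest background of its lists, 0.0752 in shCTR A and 0.0614 in shMettl14 A.

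**Figure D4:**
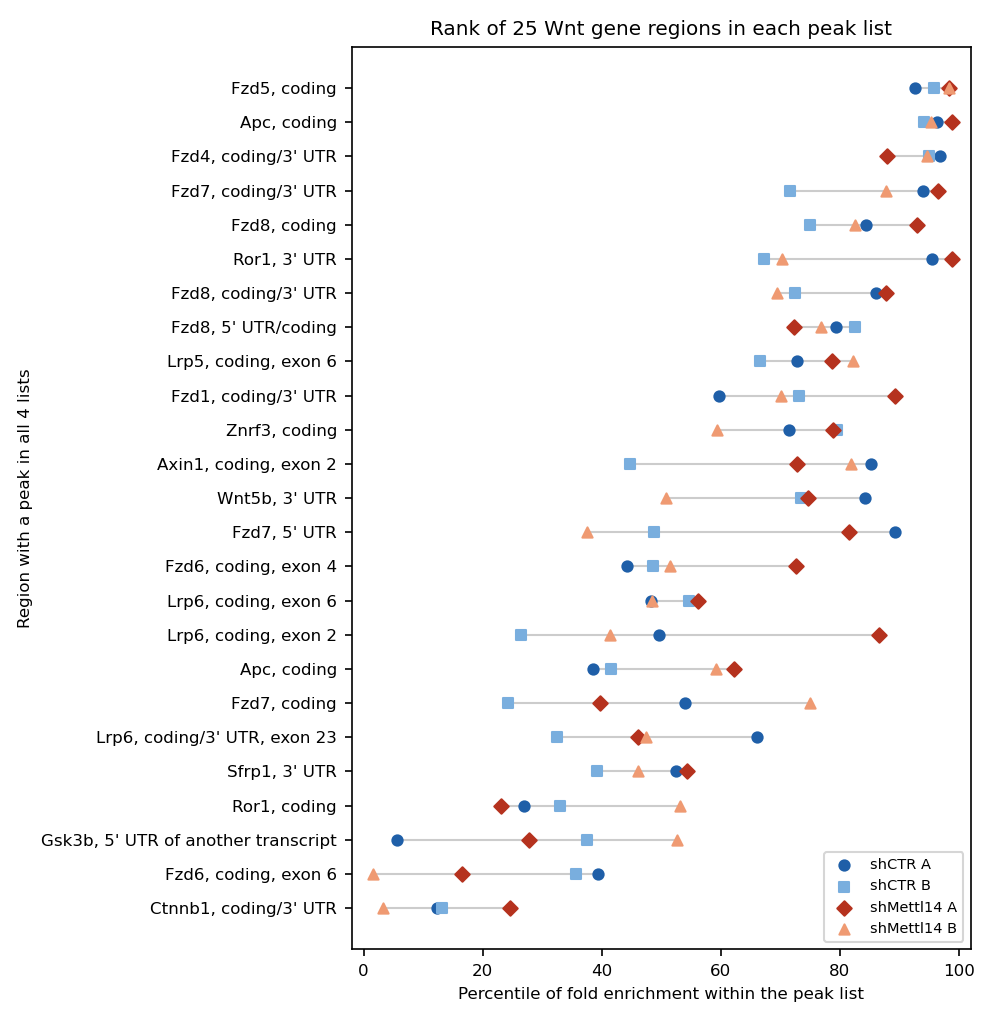
Percentile of fold enrichment within each peak list (x axis) for the 25 Wnt gene regions with a peak in all 4 lists (rows, ordered by mean percentile), 1 symbol per list and a grey line over their range. The regions of Fzd5 and Fzd4 and the higher of the 2 Apc regions stay above 87 in every list, Ctnnb1 stays below 25, and the higher of the 2 Ror1 regions, in the 3′ UTR, shows the A lists high and the B lists low.

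To ask whether Mettl14 knockdown changed m6A on these transcripts, ranks were converted to normal scores and limma was fitted over all 4929 regions found in all 4 lists. With this test none of the 25 Wnt regions passed, and the smallest adjusted p among them was 0.951. Over all regions 0% were called, with 0.796 as the smallest adjusted p. The same fit gave, at an unadjusted p under 0.05, 1 Wnt region (4%, lower in shMettl14), beside 2.41% of all regions higher and 2.52% lower. Fisher's exact test is named in the study's methods, together with a fold-change threshold. Here it was run on recovered pileups summed over replicates and with adjustment, so it does not repeat the study's analysis. It gave 0 Wnt regions after adjustment, as over all regions. At an unadjusted p under 0.05 it gave 0 of 25, beside 2.56% of all regions. The median difference over the 25 was 0.28 in normal score (shMettl14 minus shCTR), and it was 0.00 over all regions. It was 0.11 without shCTR B, 0.12 without shMettl14 A, 0.13 without shMettl14 B and 0.09 with pileups ranked. By sign, 16 were higher and 9 lower (36% lower, beside 49.9% of all regions), and the standard errors of single regions, 0.49 to 0.58, were mostly larger than the differences.

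The region at an unadjusted p under 0.05 lay in exon 6 of Fzd6 (chr15:39034908-39035181, coding sequence). It stood at 39.3 and 35.7 in shCTR and at 16.5 and 1.63 in shMettl14, without overlap. The difference in normal score was -1.16 ± 0.51 (SE, n = 2 against 2). By limma the unadjusted p was 0.0315 and the adjusted p 0.951. The pileup was 23 and 18 fragments in shCTR and 22 and 11 in shMettl14, and scaled over all regions it differed by -0.02 on the log2 scale (Fisher's exact test, p = 1). The background was 2.43 and 1.78 in shCTR and 3.46 and 2.17 in shMettl14, which scaled in the same way was 0.86 higher on the log2 scale, the most of the 25 regions. With pileups ranked within each list, the region stood at 68.2 and 55.3 in shCTR and at 73.9 and 38.8 in shMettl14. The shMettl14 A list was thus above both shCTR lists and the shMettl14 B list below both. What lowered the rank of fold enrichment was not tested. The exon 4 region of the same gene differed by 0.43 ± 0.49 (SE), with the other sign.

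Over the 25 regions the scaled pileup differed by -0.10 to 0.48 (log2, shMettl14 over shCTR), and the scaled background by -0.66 to 0.86. The Apc region 3561 to 3459 nt before the stop codon had the largest pileup difference, 0.48 (Fisher's exact test, p = 0.209). The regions of Fzd5, Lrp5 and Apc, 3 of the 4 whose shMettl14 ranks were both above the shCTR ranks, had differences in normal score of 0.55 ± 0.50, 0.35 ± 0.50 and 0.55 ± 0.49 (SE). For Fzd4, 1 of the 3 regions with shMettl14 ranks below those of shCTR, the difference was -0.47 ± 0.50 (SE). None of the 4 passed the test.

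**Figure D5:**
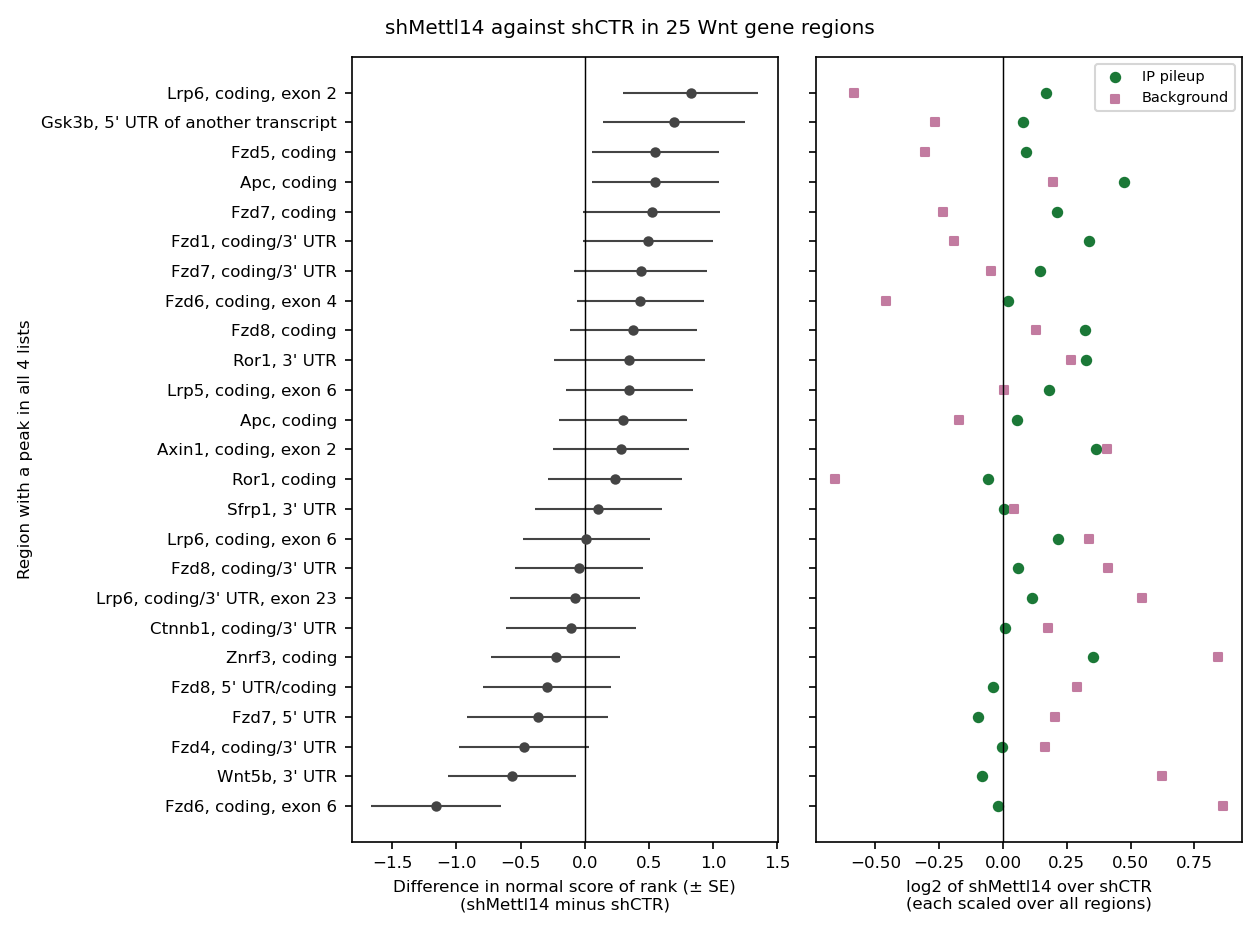
Left, difference in normal score of rank, shMettl14 minus shCTR, for the 25 Wnt gene regions (points, with SE bars from limma, n = 2 against 2). Right, log2 ratio of shMettl14 over shCTR for the pileup (circles) and the background (squares), each scaled over all regions. The exon 6 region of Fzd6 has the lowest difference, -1.16, with a pileup ratio near 0 and the highest background ratio, 0.86.

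Presence and absence told little more. A region with a peak in both shCTR lists and neither shMettl14 list (control-only) was found in 1 of the 47 (2.13%), beside 1.71% of all regions. This was a coding region of Fzd1 (chr5:4757242-4757590), 1845 to 1622 nt before the stop codon, at the low percentiles 7.69 and 17.5 with 11 and 10 fragments, and the authors' intervals shared by the shCTR replicates did not hold it. The other Fzd1 regions persisted in shMettl14, the one near the stop codon in both lists and one in the 3′ UTR in shMettl14 A. No Wnt region had the opposite pattern (knockdown-only), which 1.79% of all regions had. Without shMettl14 A, 5 regions of Fzd1, Dkk2, Ror2 and Wnt5a counted as control-only (11.9% of 42, beside 7.8% of all regions in these lists). Without shMettl14 B, 5 regions of Apc, Dkk2 and Gsk3b counted as knockdown-only (10.6% of 47, beside 14.4%). The counts over all regions thus also moved with single libraries. The authors' deposited intervals shared by both replicates held 30 of the 47 regions for shCTR and 27 for shMettl14. Both held 24, all of them among the 25 regions with a peak in every list; the Fzd6 exon 6 region was held for shCTR only.

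The peaks outside the 25 were mostly weak or rested on few lists. The 2 Ror2 regions were each absent from 1 list, shMettl14 B and shCTR B, and reached 89.8 and 93.5 in others. The 3 regions of Dkk2 were each absent from 1 to 3 lists, and its region around the stop codon stood at 68.4, 37.8 and 67.7 in all but shMettl14 B. A second coding region of Znrf3 stood at 81.2 and 34.0 in shCTR A and B and at 14.2 in shMettl14 B, and was absent from shMettl14 A. Fzd2 stood at 64.5 in shCTR A and 22.2 in shMettl14 A, and Wnt9a at 31.9 in shCTR B, on 8 fragments.

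Of 59 other genes of the pathway, 23 had a summit in any list and 15 in all 4. By role, 0 of 11 other ligands, 2 of 11 secreted modulators and 1 of 6 other receptors had one. The 15 were the R-spondin receptor Lgr4, the inhibitor Frzb, the Dkk receptor Kremen1, the kinases Csnk1d and Csnk1e, the Apc-binding protein Amer1, the β-catenin co-activators Bcl9, Bcl9l and Pygo1, the planar polarity genes Vangl1, Prickle1 and Prickle2, and the target genes Myc, Sp5 and Ccn4. Of 7 genes listed as nuclear partners (Bcl9, Bcl9l, Pygo1, Pygo2, Ctnnbip1, Tle1 and Tle3), 6 had a summit in any list and 3 in all 4. Of the 4 TCF/LEF factors none had one. Over all protein-coding genes the shares with a summit in any list and in all 4 were 25.3% and 16.0%.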

How the data were processed

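m6A-RIP-seq data of 4 IP samples (shCTR A and B, shMettl14 A and B) were analysed, and the 4 input samples entered through the authors' peak calls. Per the labels and the study's methods, the authors aligned reads with STAR to mm10 (GRCm38), selected unique alignments with SAMtools, and ran MACS2 on each IP with its own input. Versions and options are not given in the sources used here. The deposited lists hold intervals, summits, the fold enrichment (a ratio of IP to background) and −log10 of p and q, with a smallest −log10 q of 2.01. The 2 deposited overlap files hold intervals only.

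The whole-number pileup and the background were solved from fold enrichment and −log10 p under the MACS2 formulas, with a largest error of 0.000151. Summits were placed with GENCODE M21, using 1 transcript for each of 21495 coding genes, and other transcripts only for the presence of a peak. Regions merged intervals that shared at least 1 bp. Ranks of the highest fold enrichment per region were tested with limma 3.58.1 (R 4.3.3, two-sided, Benjamini-Hochberg, threshold 0.05), without a replicate block. Fisher's exact test, named in the methods, was run on recovered pileups summed over replicates and compares libraries, not cultures. Single values were compared with exact permutation tests. Exons of paralogs were aligned globally. Other steps used scipy 1.17.1, pandas 2.3.3 and numpy 2.4.6 under Python 3.11.15. Scripts were tested on simulated data.

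The genes and lists were chosen with earlier results of these data known. Named regions were the strongest per gene (up to 15 genes), those at an unadjusted p under 0.05, those present in 1 group only, and the 5 genes with the most summits. The paralogous exons and the printed sequences were chosen after their values were seen.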

Additional observations from a re-analysis of the deposited data

How the results depend on the processing

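No Wnt region passed the adjusted threshold under any alternative, including each left-out list (without shMettl14 A, 3 of 5076 regions passed over all genes). The count at an unadjusted p under 0.05, 1 region, was 0 with −log10 p ranked, with centred log2 fold enrichment, with −log10 q of at least 3 and with Fisher's exact test on pileups, and 0 to 2 with 1 list left out. Control-only regions numbered 2 to 5 and knockdown-only regions 0 to 5 with 1 list left out, and 1 and 0 under the other alternatives. The ratio of Wnt summits, 1.20, was 1.01 for distinct intervals, 1.03 as a percent of all summits (an alternative added after seeing the data) and 0.933 to 1.47 with 1 list left out. The difference in the stop codon share, 2.16 percentage points, was 4.35 points for a window of 400 nt and 0.944 to 3.37 with 1 list left out. The DRACH difference, -1.37 points, was 4.48 for GGACT within 50 nt but -1.44 for GGACT within 25 nt and -6.44 within 100 nt (both added after seeing the data), 1.11 for DRACH within 100 nt, and -5.36 to 2.63 with 1 list left out. The median difference in normal score stayed positive, at 0.09 to 0.30, but 3 of the 4 left-out lists (all but shCTR A) took it to 0.11 to 0.13, and ranking pileups to 0.09. With a replicate block there were again 0 called regions, 1 at an unadjusted p under 0.05 and a median of 0.28. Same-lettered lists deviated together only weakly (correlation 0.08 over regions) and number only 2 pairs, so they were not treated as paired. Of 105 values of named genes under alternatives, 6 moved by more than the larger SD and 12 changed sign.

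Precision at single sites is limited by 2 lists per group and a median pileup of 13 to 16 fragments, and the size of change that could be detected was not measured. Ranks within a list cannot show a loss of m6A that is equal at all sites. The methods state a sequencing depth per sample, and read numbers for each library are not in the lists used here.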
